A study of Mus musculus with 9 samples.

Results

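The 10 genes described here are genes of the circadian clock, namely *Arntl* (also called *Bmal1*), *Clock*, *Per1*, *Per2*, *Per3*, *Cry1*, *Cry2*, *Nr1d1*, *Nr1d2* and its output *Dbp*. They were chosen by gene symbol from the 48820 genes of the deposited table, and all 10 were found there under a single identifier each. RNA was sequenced from 9 whole hearts of untreated wild-type C57BL/6J mice, all labelled male, with 3 biological replicates each at embryonic day 18.5 (E18.5d), postnatal day 1 (P1d) and postnatal day 7 (P7d). The values are FPKM, fragment counts scaled to transcript length and library size, so levels of different genes are compared per length. The time of day at which the hearts were taken is not given in the sources used here. Stage and time of day therefore cannot be told apart in any comparison of these genes.

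The circadian clock is a feedback loop of transcription that most cells, cardiomyocytes included, carry with a period of about a day. ARNTL and CLOCK bind E-boxes as a pair and activate the *Per*, *Cry*, *Nr1d* and *Dbp* genes. PER and CRY proteins then enter the nucleus and inhibit that pair, while the nuclear receptors NR1D1 and NR1D2 (REV-ERBs) repress *Arntl* through ROR elements, and DBP activates genes with D-boxes. In adult heart the loop times metabolic and electrical genes across the day, and glucocorticoids, feeding and temperature can reset it, with *Per1* and *Per2* among the genes that answer directly to such signals.

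RefSeq promoter windows, 250 bases before to 50 bases after a transcription start on GRCm38.p6, were found for 9 of the 10 genes (13 windows). The 5 windows below are shown because they hold a match to a clock motif and belong to genes with different courses after birth. The capitals mark matches on either strand to the E-box CACGTG, the variant E-box CACGTT, the D-box TTATGTAA or the ROR element TAGGTCA. All sequences run 5′ to 3′ along the gene.
*Per1* (chr11:69098699-69098998, + strand): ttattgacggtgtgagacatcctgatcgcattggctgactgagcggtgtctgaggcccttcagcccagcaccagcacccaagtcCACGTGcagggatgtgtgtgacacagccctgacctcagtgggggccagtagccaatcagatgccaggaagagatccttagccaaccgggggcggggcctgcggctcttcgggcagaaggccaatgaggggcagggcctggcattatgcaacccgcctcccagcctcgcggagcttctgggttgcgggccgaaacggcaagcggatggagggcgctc
*Nr1d1* (chr11:98775328-98775627, - strand): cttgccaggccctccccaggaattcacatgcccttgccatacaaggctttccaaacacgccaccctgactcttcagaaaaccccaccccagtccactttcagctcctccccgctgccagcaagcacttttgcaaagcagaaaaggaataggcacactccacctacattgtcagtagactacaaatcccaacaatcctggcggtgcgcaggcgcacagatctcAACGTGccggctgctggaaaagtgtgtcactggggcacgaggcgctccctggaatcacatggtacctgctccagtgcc
*Per3* (chr4:151044616-151044915, - strand): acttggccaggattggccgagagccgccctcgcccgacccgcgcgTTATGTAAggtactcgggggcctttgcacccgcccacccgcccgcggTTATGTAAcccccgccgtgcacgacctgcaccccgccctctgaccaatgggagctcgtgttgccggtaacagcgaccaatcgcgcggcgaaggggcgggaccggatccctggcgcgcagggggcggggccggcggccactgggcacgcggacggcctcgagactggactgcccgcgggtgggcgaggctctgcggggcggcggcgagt
*Cry1* (chr10:85185005-85185304, - strand): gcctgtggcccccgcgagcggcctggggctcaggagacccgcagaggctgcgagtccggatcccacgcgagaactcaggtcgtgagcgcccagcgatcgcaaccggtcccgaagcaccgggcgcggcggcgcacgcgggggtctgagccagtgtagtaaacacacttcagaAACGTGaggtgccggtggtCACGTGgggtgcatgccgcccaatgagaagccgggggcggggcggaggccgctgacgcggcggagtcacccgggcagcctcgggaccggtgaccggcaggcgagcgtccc
*Arntl* (chr7:113207261-113207560, + strand): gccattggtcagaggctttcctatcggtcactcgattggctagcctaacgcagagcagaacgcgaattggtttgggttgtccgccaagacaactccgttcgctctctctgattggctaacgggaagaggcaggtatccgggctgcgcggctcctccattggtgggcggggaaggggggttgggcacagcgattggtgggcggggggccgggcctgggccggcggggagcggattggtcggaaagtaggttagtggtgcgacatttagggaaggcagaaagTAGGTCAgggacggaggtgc
Across all 32851 promoter windows of this length, CACGTG was found in 7.15%, CACGTT in 4.69%, TTATGTAA in 0.938% and TAGGTCA in 2.61%. The *Per1* window held a CACGTG at position -166 from its start, and the *Cry1* window a CACGTG at -60 and a CACGTT at -79. The *Nr1d1* window held a CACGTT at -28, as did that of *Cry2* (not shown) at -166. Both D-boxes of *Per3* lay upstream of its start, at -205 and -158, and the TAGGTCA of *Arntl* lay 31 bases into the transcript of its downstream start. The windows of *Clock*, *Dbp* and *Nr1d2* held none of these letters, nor did the downstream window of *Per1* or the upstream window of *Arntl*. In no window of these genes was the D-box variant TTACGTAA (0.119% of all windows), the cAMP response element TGACGTCA (1.79%) or the glucocorticoid element (AGAACA, any 3 bases, TGTTCT; 0.009%) found. A match is a description of the window and not evidence of binding.

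Before the comparisons, several hearts stood apart. *Xist*, the RNA that coats the silenced X chromosome of female cells, reached 58.0 to 97.0 FPKM in 4 hearts (E18.5d replicates 1 and 3, P7d replicates 2 and 3), in which the Y-linked *Ddx3y*, *Kdm5d*, *Uty* and *Eif2s3y* were listed at 0, so these hearts go against their male label. The summed level of 5 airway and lung markers was 55.9, 137 and 221 FPKM in E18.5d replicates 1 and 2 and P1d replicate 1, and no more than 1.5 FPKM in the remaining 6. Depth, read from the steps between low values, was 25.5 to 45 times 1e6 fragments per heart, so that a single fragment per kilobase equals 0.0222 to 0.0392 FPKM. Every clock gene was at 2.29 FPKM or more in every heart. The 8 cardiomyocyte markers examined were present in all hearts, the lowest being *Ryr2*, at 168 to 295 FPKM. Stages were compared with limma on log2(FPKM + 1) over 13618 genes whose mean reached 1 FPKM, at a Benjamini-Hochberg adjusted p of 0.05, and all 10 clock genes passed this filter. The median log2 difference of all genes tested was -0.06 for P1d against E18.5d, -0.09 for P7d against P1d and -0.17 for P7d against E18.5d. Rescaling by median of ratios brought these medians to 0.01, 0.02 and 0.01. It also moved the share of higher genes among those called from 40.0% to 51.5%, from 35.1% to 56.4% and from 25.3% to 55.4%. Small structural RNAs such as *Rn7sk* made up 53.3% to 62.3% of the summed FPKM of each heart, so rescaling columns to an equal sum depends largely on them. In bulk tissue, fewer cells of a type and less RNA per cell cannot be told apart.

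On the first postnatal day, 7 of the 10 clock genes rose above their fetal level, namely *Per1*, *Per2*, *Per3*, *Cry2*, *Nr1d1*, *Nr1d2* and *Dbp*, and 0 fell (0 also at an unadjusted limma p under 0.05). Of all genes tested, 18.4% were called higher and 27.6% lower in that comparison. By P7d the same 7 genes had fallen from the P1d level. The rise and the fall use the same P1d hearts and are not independent. The share of all genes with both was not computed. *Per1* and *Per2* fell to below the fetal level, and the other 5 stayed above it. *Arntl*, *Clock* and *Cry1* passed the threshold in none of the 3 comparisons. From P1d to P7d, 28.6% of all genes tested fell and 15.5% rose, and relative to E18.5d, 12.5% were higher and 36.9% lower at P7d. Hearts did not overlap for 7 clock genes at P1d against E18.5d, all higher (22.1% of all genes tested were apart and higher, 32.3% apart and lower), and for the same 7 at P7d against P1d, all lower (19.3% and 34.3%). At P7d against E18.5d, 6 were apart and higher and 3 apart and lower (16.9% and 45.6%), which adds *Arntl* and *Cry1* to the 7. The median log2 difference of the 10 genes was 1.30 at P1d against E18.5d, -0.53 at P7d against P1d and 0.37 at P7d against E18.5d.

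**Figure D1:**
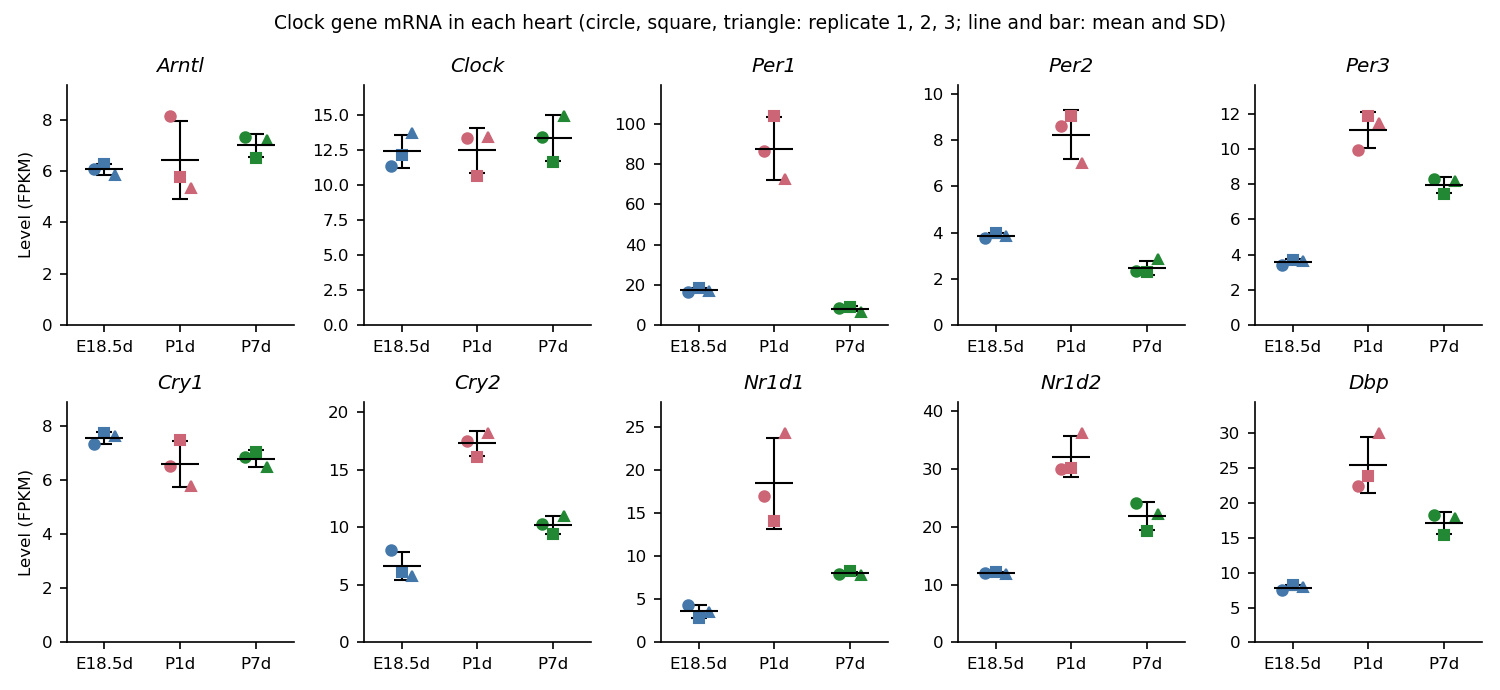
Level in FPKM of the 10 clock genes in each of the 9 hearts, with 1 panel per gene on its own linear axis from 0. Symbols mark the replicate, and the line and bar give the mean and SD of 3 hearts; in *Per1*, *Per2*, *Per3*, *Cry2*, *Nr1d1*, *Nr1d2* and *Dbp* every P1d heart lies above every heart of the other stages.

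*Arntl* and *Clock*, the activating pair, passed the threshold in no comparison of the main fit. *Arntl* was at 6.08, 6.28 and 5.84 FPKM in the E18.5d hearts, 8.15, 5.76 and 5.35 FPKM at P1d and 7.31, 6.50 and 7.20 FPKM at P7d. The P1d hearts spanned the range of both other stages because replicate 1 was high, and all 3 P7d hearts lay above the 3 E18.5d hearts. The log2 difference was 0.05 at P1d against E18.5d (95% interval -0.23 to 0.33) and 0.18 at P7d against E18.5d (-0.10 to 0.46), and neither passed the threshold (limma, adjusted p = 0.760 and 0.264). With median of ratios or quantile normalization, *Arntl* passed as higher for P7d against E18.5d (0.36 and 0.34, limma, adjusted p = 0.0350 and 0.0448), and without P1d replicate 1 it was higher at P7d than at P1d (0.29, adjusted p = 0.0268). *Clock* was at 11.4, 12.2 and 13.7 FPKM at E18.5d, 13.4, 10.6 and 13.4 FPKM at P1d and 13.4, 11.6 and 14.9 FPKM at P7d, so that the 3 stages overlapped. Its log2 differences were 0.003 (95% interval -0.26 to 0.26), 0.09 (-0.17 to 0.35) and 0.09 (-0.17 to 0.35) for P1d against E18.5d, P7d against P1d and P7d against E18.5d.

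*Per1*, a repressor of the ARNTL and CLOCK pair and an acutely inducible gene, had the largest log2 difference of the 10 from P1d to P7d. It was at 16.5, 18.6 and 17.0 FPKM in the E18.5d hearts, 86.2, 104 and 72.7 FPKM in the P1d hearts and 8.54, 8.95 and 6.65 FPKM in the P7d hearts. The 3 stages formed 3 ranges without overlap. The mean was 5.04-fold higher at P1d than at E18.5d (log2 difference 2.26, standard error 0.14, limma, adjusted p = 3.78e-06), the 28th largest of the 13618 log2 differences in that comparison. From P1d to P7d the mean fell by 90.8% (log2 difference -3.29, adjusted p = 2.11e-06), and 8 of the 13618 genes had a more negative difference. At P7d it was 53.7% below E18.5d (log2 difference -1.03, adjusted p = 0.000266).

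*Per2*, the closest relative of *Per1* in function, followed the same course at a lower level. It was at 3.77, 3.98 and 3.86 FPKM at E18.5d, 8.60, 9.04 and 7.02 FPKM at P1d and 2.32, 2.29 and 2.84 FPKM at P7d, again without overlap between stages. Its mean was 2.12-fold higher at P1d than at E18.5d (log2 difference 0.91, standard error 0.10, limma, adjusted p = 0.000123), whereas its P7d mean was 35.8% below E18.5d (log2 difference -0.49, adjusted p = 0.00382). Without the 3 hearts with airway genes, that last difference was -0.48 and did not pass the threshold. Replicate 3 is then the only E18.5d heart, so the lost call says little about stability.

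*Per3*, the *Per* gene least needed for rhythm, kept most of its rise. It was at 3.42, 3.69 and 3.66 FPKM at E18.5d, 9.92, 11.9 and 11.4 FPKM at P1d and 8.30, 7.44 and 8.15 FPKM at P7d. The mean was 3.09-fold higher at P1d than at E18.5d (log2 difference 1.39, standard error 0.08, limma, adjusted p = 3.56e-06) and still 2.22-fold higher at P7d (0.96, adjusted p = 2.02e-05). At P7d against E18.5d the 95% interval of *Per3* (0.78 to 1.148) therefore lay on the other side of 0 from those of *Per1* (-1.33 to -0.73) and *Per2* (-0.72 to -0.25).

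The *Per* genes thus changed their proportions. The ratio of *Per1* to *Per2* was 4.49 ± 0.172 before birth and 10.6 ± 0.766 and 3.31 ± 0.847 at P1d and P7d (mean ± SD, n = 3 each). The ratio of *Per3* to *Per1* was 0.207 ± 0.00857, 0.129 ± 0.0247 and 1.01 ± 0.2 at the 3 stages. For both ratios the hearts of each stage were apart from those of the others, and the exact two-sided permutation test gave 0.1 in each comparison, the smallest p that 3 hearts against 3 allow.

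Of the cryptochromes, which repress the activating pair together with the PER proteins, *Cry2* moved and *Cry1* did not pass the threshold. *Cry2* was at 8.04, 6.14 and 5.81 FPKM at E18.5d, 17.6, 16.1 and 18.2 FPKM at P1d and 10.3, 9.39 and 10.96 FPKM at P7d, with no overlap between stages. The *Cry2* mean was 2.59-fold higher at P1d than at E18.5d (log2 difference 1.26, standard error 0.11, limma, adjusted p = 2.81e-05) and remained 1.53-fold higher at P7d (0.56, adjusted p = 0.00252). *Cry1* was at 7.32, 7.74 and 7.65 FPKM at E18.5d, 6.54, 7.49 and 5.77 FPKM at P1d and 6.87, 7.06 and 6.47 FPKM at P7d. All 3 P7d hearts lay below the 3 E18.5d hearts, but the log2 difference of -0.14 (95% interval -0.33 to 0.06) missed the threshold (adjusted p = 0.223). With median of ratios it turned to 0.05. At P1d the difference of *Cry1* from E18.5d was -0.18 (adjusted p = 0.122). It passed as lower with the columns rescaled to an equal sum (-0.33, limma, adjusted p = 0.0171) and without P1d replicate 2 (-0.26, adjusted p = 0.0271). The ratio of *Cry2* to *Cry1* was 0.884 ± 0.187 before birth and 2.66 ± 0.500 and 1.51 ± 0.182 at P1d and P7d, so that *Cry1*, the more abundant cryptochrome in 2 of the 3 E18.5d hearts, was the less abundant in all 6 postnatal hearts.

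*Nr1d1* and *Nr1d2*, which encode the REV-ERB repressors of *Arntl*, both rose at P1d. *Nr1d1* was at 4.37, 2.86 and 3.57 FPKM at E18.5d, 17.0, 14.1 and 24.2 FPKM at P1d and 7.92, 8.24 and 7.82 FPKM at P7d. The stages did not overlap, and the P1d hearts differed among themselves by 1.73-fold, the widest spread of any clock gene at that stage. The mean was 5.12-fold higher at P1d than at E18.5d (log2 difference 2.06, standard error 0.18, limma, adjusted p = 2.74e-05) and 2.22-fold higher at P7d (0.98, adjusted p = 0.00162). *Nr1d1* shares 263 exonic bases with *Thra*, a thyroid hormone receptor gene on the opposite strand, and a kit that is not stated to keep strand cannot assign reads from them. *Thra* was at 56.96 to 59.9, 75.8 to 93.8 and 64.1 to 70.0 FPKM at the 3 stages, a smaller rise than that of *Nr1d1*, whose ratio to *Thra* was 0.0614 ± 0.0123, 0.227 ± 0.0861 and 0.118 ± 0.00336. *Nr1d2* was at 12.0, 12.2 and 11.9 FPKM at E18.5d, 29.9, 30.2 and 36.1 FPKM at P1d and 24.1, 19.2 and 22.3 FPKM at P7d, without overlap. Its mean was 2.66-fold higher at P1d than at E18.5d (log2 difference 1.34, standard error 0.10, adjusted p = 9.04e-06) and 1.82-fold higher at P7d (0.80, adjusted p = 0.000147). *Nr1d2* was the more abundant of the pair in every heart, by 3.45 ± 0.768 fold before birth and by 1.80 ± 0.330 and 2.74 ± 0.369 fold at P1d and P7d.

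*Dbp*, a PAR bZIP activator that serves as an output of the loop, was at 7.46, 8.17 and 7.94 FPKM at E18.5d, 22.4, 23.8 and 30.0 FPKM at P1d and 18.3, 15.4 and 17.8 FPKM at P7d. Every P1d heart was above every P7d heart, and every P7d heart above every E18.5d heart. The mean was 3.23-fold higher at P1d than at E18.5d (log2 difference 1.57, standard error 0.11, limma, adjusted p = 7.59e-06) and 2.18-fold higher at P7d (1.03, adjusted p = 7.21e-05). From P1d to P7d its log2 difference was -0.53 (adjusted p = 0.00361), and with the columns rescaled to an equal sum this was -0.41 and missed the threshold (adjusted p = 0.0584). *Dbp* shares 539 exonic bases with *Sphk2* on the opposite strand, which was at 4.59 to 6.05 FPKM in all 9 hearts. The ratio of *Dbp* to *Sphk2* was 1.59 ± 0.0723 before birth and 4.95 ± 1.39 and 3.57 ± 0.345 at P1d and P7d. *Cry2* shares 295 exonic bases with *D930015M05Rik* (0.16 to 1.24 FPKM) and *Arntl* 33 with *Gm45355* (listed at 0), both on the opposite strand. The part of reads from shared bases in the levels of these genes and of *Nr1d1* was not tested. The ratio of *Dbp* to *Arntl*, which peak at opposite times of day in adult tissues, was 1.23, 1.30 and 1.36 in the E18.5d hearts, 2.75, 4.13 and 5.60 in the P1d hearts and 2.497, 2.37 and 2.47 in the P7d hearts. The 3 P7d hearts gave nearly the same ratio, and the 3 P1d hearts differed by more than those of either other stage.

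**Figure D2:**
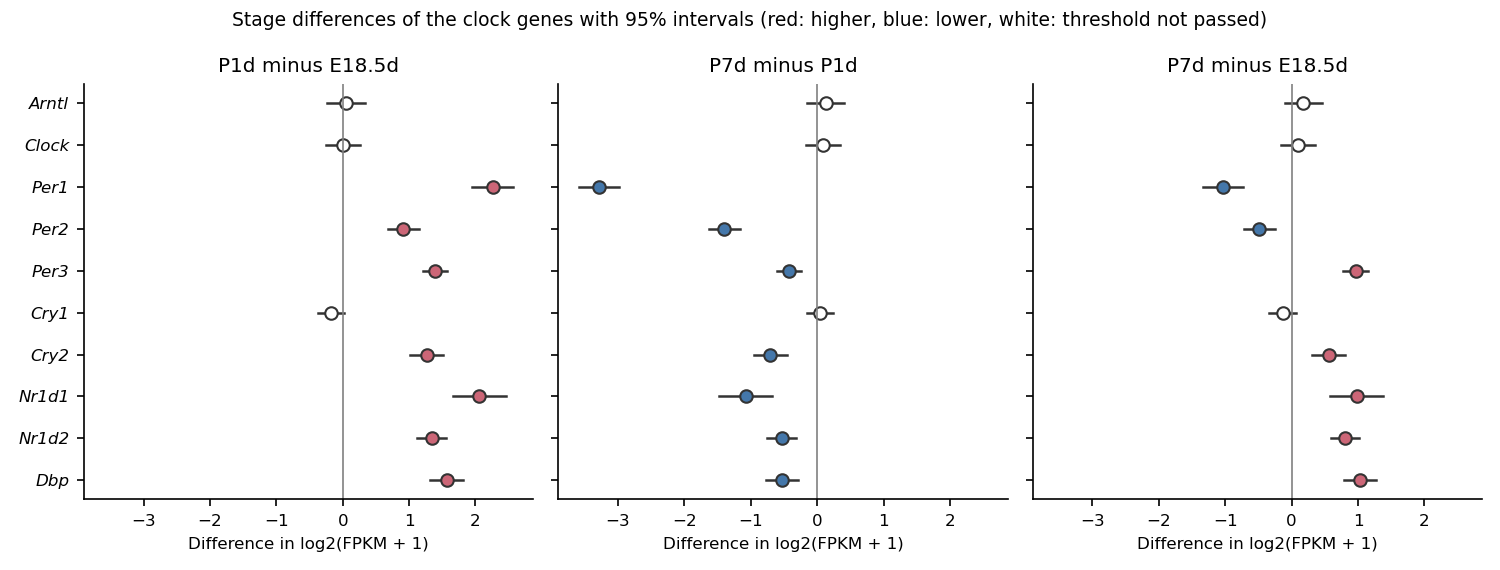
Difference in log2(FPKM + 1) between stages for each clock gene, in 3 panels for the 3 comparisons, with 95% intervals from limma; red and blue mark genes past the threshold as higher or lower, white those that did not pass. *Per1* extends from 2.26 at P1d minus E18.5d to -3.29 at P7d minus P1d, and *Arntl*, *Clock* and *Cry1* include 0 throughout.

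The order of the clock genes by level changed with stage. Before birth *Per1* was the most abundant, at 17.4 ± 1.13 FPKM, followed by *Clock* (12.4 ± 1.18 FPKM) and *Nr1d2* (12.0 ± 0.166 FPKM), which overlapped each other. *Dbp*, *Cry1*, *Cry2* and *Arntl* came next with overlapping neighbours, and *Per2*, *Nr1d1* and *Per3* were lowest, at 3.59 to 3.87 FPKM on average, and overlapped. At P1d *Per1* alone made up 38.8% of the summed FPKM of the 10 genes (32.4% to 44.6% by heart), against 21.4% at E18.5d and 7.82% at P7d. *Nr1d2*, *Dbp*, *Nr1d1* and *Cry2* followed with overlapping neighbours, then *Clock* and *Per3*, and *Per2*, *Cry1* and *Arntl* were lowest, each overlapping the next. At P7d *Nr1d2* led, at 21.9 ± 2.48 FPKM, before *Dbp*, *Clock* and *Cry2*, and each of these 4 was apart from the next. *Per1*, *Nr1d1* and *Per3* were then almost level, with means from 7.96 to 8.05 FPKM, and *Per2* was lowest at 2.48 ± 0.309 FPKM.

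**Figure D3:**
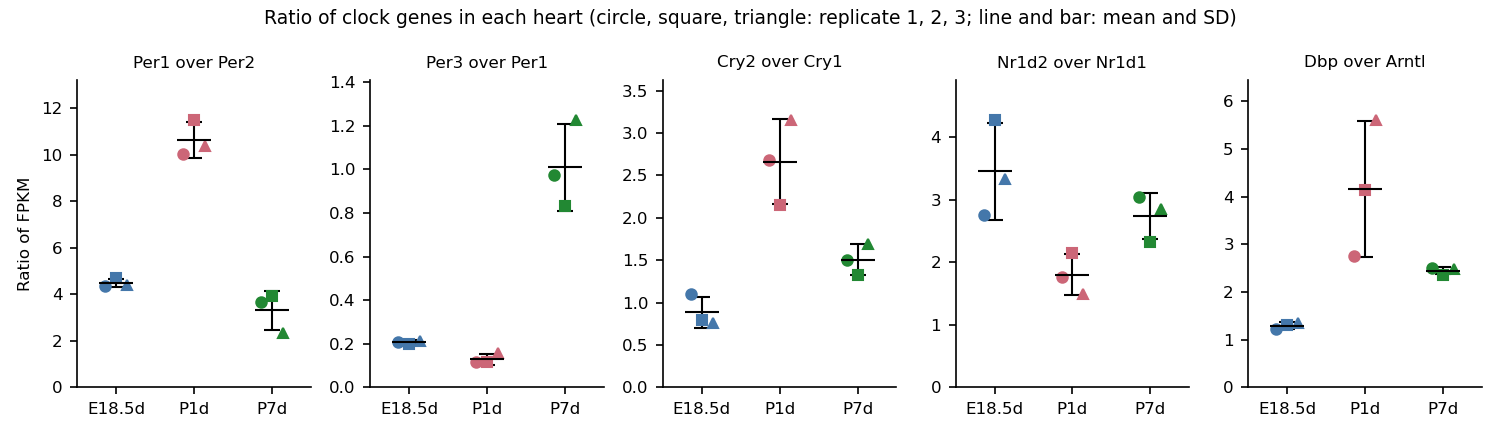
Ratio of FPKM between pairs of clock genes in each heart, on linear axes from 0, with the mean and SD of 3 hearts. The ratio of *Per1* to *Per2* is highest in the P1d hearts, that of *Per3* to *Per1* in the P7d hearts, and the ratio of *Nr1d2* to *Nr1d1* overlaps between E18.5d and P7d.

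Hearts of the same stage were not equally alike. The coefficient of variation of the 10 genes ran from 1.38% (*Nr1d2*) to 20.99% (*Nr1d1*) at E18.5d, from 6.10% (*Cry2*) to 28.5% (*Nr1d1*) at P1d and from 2.74% (*Nr1d1*) to 15.2% (*Per1*) at P7d. The spread around the stage means on the log2 scale placed *Nr1d1* at the 90.1th percentile of all genes tested, *Per1* at the 79.7th and *Arntl* at the 73.5th, with *Per3* at the 26th. Among the P1d hearts, replicate 3 had the highest *Nr1d1*, *Nr1d2*, *Dbp*, *Cry2* and *Clock* and the lowest *Per1*, *Per2*, *Cry1* and *Arntl*. Replicate 2 had the highest *Per1*, *Per2*, *Per3* and *Cry1* and the lowest *Nr1d1*, and replicate 1 the highest *Arntl* and the lowest *Dbp* and *Nr1d2*. Some of these places were near ties, *Clock* being at 13.41 FPKM in replicate 3 and 13.38 FPKM in replicate 1. In replicate 3, *Nr1d1* was at 132% of its stage mean and *Per1* at 83.0%. The clock genes were thus not all high or low together within that stage. Whether these 3 hearts were taken at different times of day was not tested.

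Of 39 other genes of the clock, 37 passed the expression filter. At P1d 16 had risen and 7 fallen relative to E18.5d (23 of 37 called, against 46.0% of all genes tested), with a median log2 difference of 0.12 against -0.06. Of the 16, 13 were lower again at P7d than at P1d. Both comparisons use the same P1d hearts, and the share of all genes with that course was not computed. From P1d to P7d 18 fell and 2 rose (20 of 37, against 44.2% of all genes), and compared with E18.5d 12 were lower and 6 higher at P7d (18 of 37, against 49.4%). Without the 3 hearts with airway genes, fewer of the 37, and fewer of all genes tested, passed against E18.5d. Replicate 3 is then the only E18.5d heart, so this drop says little about stability.

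Among activators, *Rora*, a nuclear receptor that binds the same elements as the REV-ERBs, was at 4.02 to 5.03 FPKM at E18.5d, 5.90 to 8.19 FPKM at P1d and 7.47 to 8.91 FPKM at P7d. It rose by 0.48 at P1d (limma, adjusted p = 0.0102) and was still above the fetal level at P7d (0.67, adjusted p = 0.00161). *Npas2* and *Arntl2*, which can stand in for *Clock* and *Arntl*, passed in no comparison. Both other PAR bZIP genes followed *Dbp*: *Tef* rose by 1.18 and *Hlf* by 0.96 at P1d (adjusted p = 3.00e-05 and 7.05e-05), and at P7d they were 0.51 and 0.51 above E18.5d.
Among the other repressors, *Ciart*, which binds ARNTL, was at 0.66 to 1.5 FPKM at E18.5d, 4.02 to 5.85 FPKM at P1d and 0.38 to 0.81 FPKM at P7d. Its P1d to P7d difference of -1.95 (limma, adjusted p = 6.16e-05) was among the 3 largest of these genes in that comparison. *Nfil3*, which competes with DBP at D-boxes, rose by 0.65 at P1d (adjusted p = 0.00217). *Bhlhe40* moved the other way, from 19.1 to 20.3 FPKM at E18.5d to 9.80 to 17.6 FPKM at P1d (-0.56, adjusted p = 0.0184).
Of 11 kinases and ubiquitin ligases or proteases that act on clock proteins, 6 were higher and 1 lower at P1d (18.4% and 27.6% of all genes tested). The casein kinases *Csnk1d*, *Csnk1e* and *Csnk1a1*, which phosphorylate PER proteins, rose by 0.23 to 0.30 at P1d (limma, adjusted p from 0.00579 to 0.0402).
Of 10 cofactors, 2 were higher and 4 lower at P1d, against 18.4% and 27.6% of all genes tested. *Timeless*, which also works at the replication fork, fell from 6.63 to 8.25 FPKM at E18.5d to 1.25 to 2.85 FPKM at P1d (-1.61, limma, adjusted p = 0.000114) and was back at 5.78 to 6.94 FPKM at P7d. Its partner *Tipin* fell by 0.75 at P1d (adjusted p = 0.000492). Of the 6 output genes, 2 were higher, 1 lower and 3 neither at P1d, against 18.4% higher and 27.6% lower of all genes tested. *Klf10* (1.58, limma, adjusted p = 4.26e-06) and *Klf15* (1.02, adjusted p = 0.00194) rose. *Wee1*, a kinase that holds back mitosis, fell (-0.59, adjusted p = 0.000368). By P7d *Klf15* was at 3.89 to 4.18 FPKM, below its 8.02 to 9.42 FPKM at E18.5d, while *Klf10* remained above its fetal level.

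**Figure D4:**
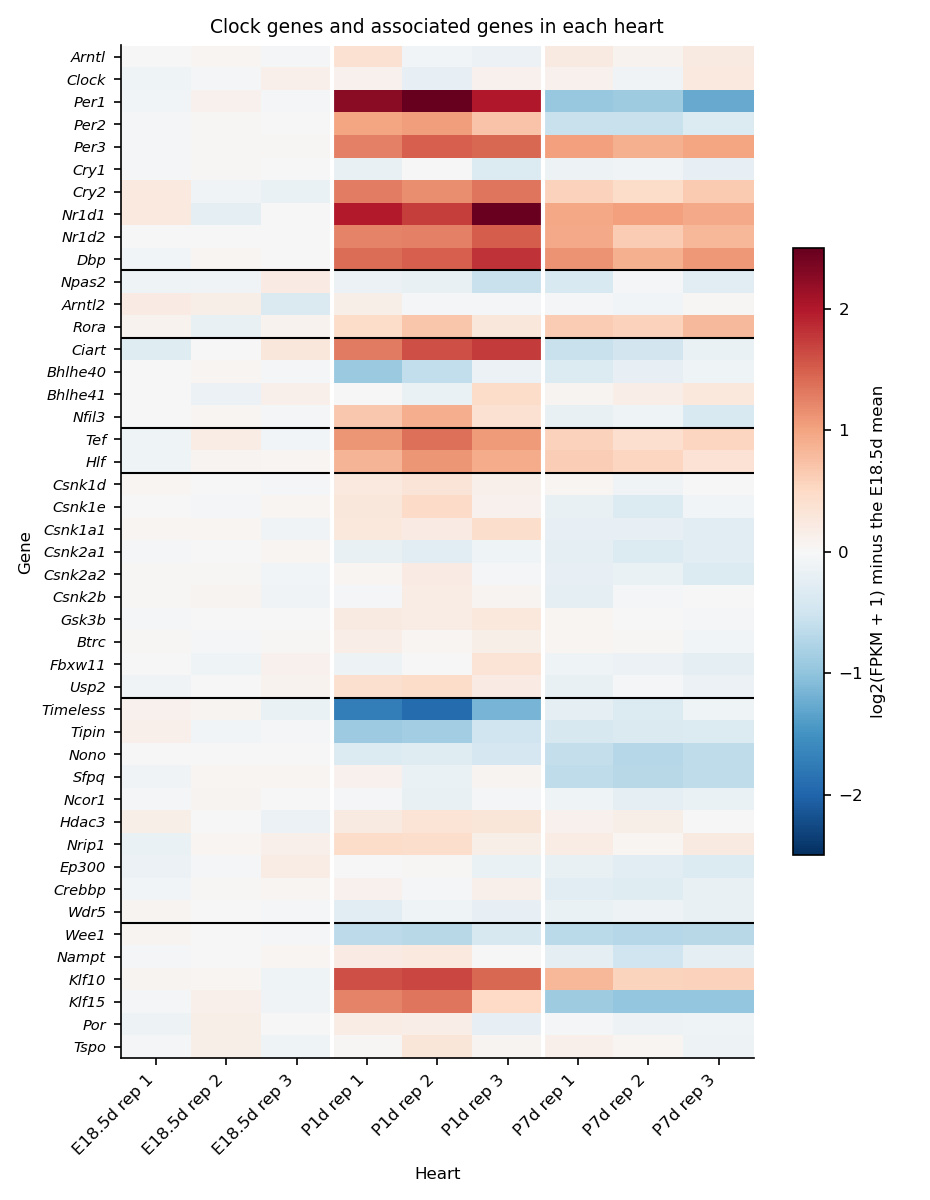
Heat map of log2(FPKM + 1) minus the gene's E18.5d mean, in each heart, for the 10 clock genes and, below them, other activators and ROR genes, other repressors, PAR bZIP genes, kinases and ligases, cofactors and outputs, separated by black lines. *Per1*, *Nr1d1*, *Klf10* and *Ciart* are among the darkest red at P1d and *Timeless* the darkest blue.

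Genes of like pattern were sought among 12076 protein-coding genes by the root mean square difference of profiles over the 9 hearts, each gene centred on its mean and divided by its SD. For *Dbp*, the nearest of all genes tested were *Nr1d2* (0.0911 SD) and *Per3* (0.134 SD), and *Nr1d1* and *Cry2* were the 42nd and the 103rd nearest. The remaining clock genes were far from *Dbp*, at rank 2584 (*Per1*), 2826 (*Per2*), 4671 (*Clock*), 4772 (*Arntl*) and 11119 (*Cry1*). Outside the clock genes the nearest to *Dbp* were *Smarcd1* (0.189 SD), *Il20rb* (0.193 SD) and *2010111I01Rik* (0.204 SD), all of them farther than *Nr1d2* and *Per3*. For *Arntl* the nearest were *Tbl1xr1* (0.333 SD), *Gnb1l* (0.481 SD) and *Smarcc2* (0.483 SD), all at a larger distance. The clock gene nearest to *Arntl* was *Clock*, at rank 1224 of all genes tested (1.03 SD). The nearest protein-coding genes to *Per1* and *Per2* outside the clock genes, looked up after the values were seen, were *Crbn* (0.104 SD) and *Zbtb16* (0.0747 SD).

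*Zbtb16* is a glucocorticoid-induced gene, and genes that answer to signals known to act on the clock were examined beside the clock genes. For comparison, 18.4% of all genes tested were higher and 27.6% lower at P1d than at E18.5d, and 15.5% rose and 28.6% fell from P1d to P7d. Of 8 glucocorticoid response genes, 5 were higher and 0 lower at P1d than at E18.5d (0 also at an unadjusted p under 0.05), and 5 fell and 2 rose from P1d to P7d. The 8 include *Nr3c1*, the gene of the glucocorticoid receptor itself. *Nr3c1* was among those that rose from P1d to P7d (log2 difference 0.42) and among those above the fetal level at P7d (0.55). *Klf9* was at 3.68 to 4.46 FPKM at E18.5d, 20.7 to 24.3 FPKM at P1d and 9.52 to 11.1 FPKM at P7d (P1d against E18.5d, log2 difference 2.18, limma, adjusted p = 8.06e-07). *Zbtb16* was at 4.0, 4.13 and 4.99 FPKM at E18.5d, 14.7, 15.98 and 10.9 FPKM at P1d and 2.0, 2.03 and 2.62 FPKM at P7d. Like *Per1* and *Per2*, it fell below the fetal level at P7d (-0.74, limma, adjusted p = 0.00214), and its P1d replicate 3 was the lowest of that stage. *Zbtb16* was singled out as the nearest gene to *Per2* over the 9 hearts, so its likeness to *Per2* follows from that choice. Of the 8 glucocorticoid response genes, 4 passed as above the fetal level at P7d, 3 passed as below it and 1 did not pass. *Fkbp5*, another such gene, did not pass at P1d (0.50, adjusted p = 0.214), with 25.4 and 33.1 FPKM in replicates 1 and 2 but 11 FPKM in replicate 3.
Of 7 immediate early genes, 6 were higher at P1d than at E18.5d and 5 at P7d (12.5% of all genes tested were higher in the latter comparison). *Atf3* (1.49, limma, adjusted p = 0.00775) and *Nr4a1* (1.28, adjusted p = 0.000121) changed the most at P1d. Of 7 temperature response genes, the cold-induced *Cirbp* and *Rbm3* were higher at P1d (2.33 and 0.60, limma, adjusted p = 6.51e-08 and 0.000485) and 4 heat shock genes were lower, *Hsph1* by the most (-1.59, adjusted p = 6.55e-05). *Cirbp* was at 19.7 to 20.99 FPKM at E18.5d, 101 to 110 FPKM at P1d and 34.2 to 38.1 FPKM at P7d. The part of these signals in the course of the clock genes was not tested.

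**Figure D5:**
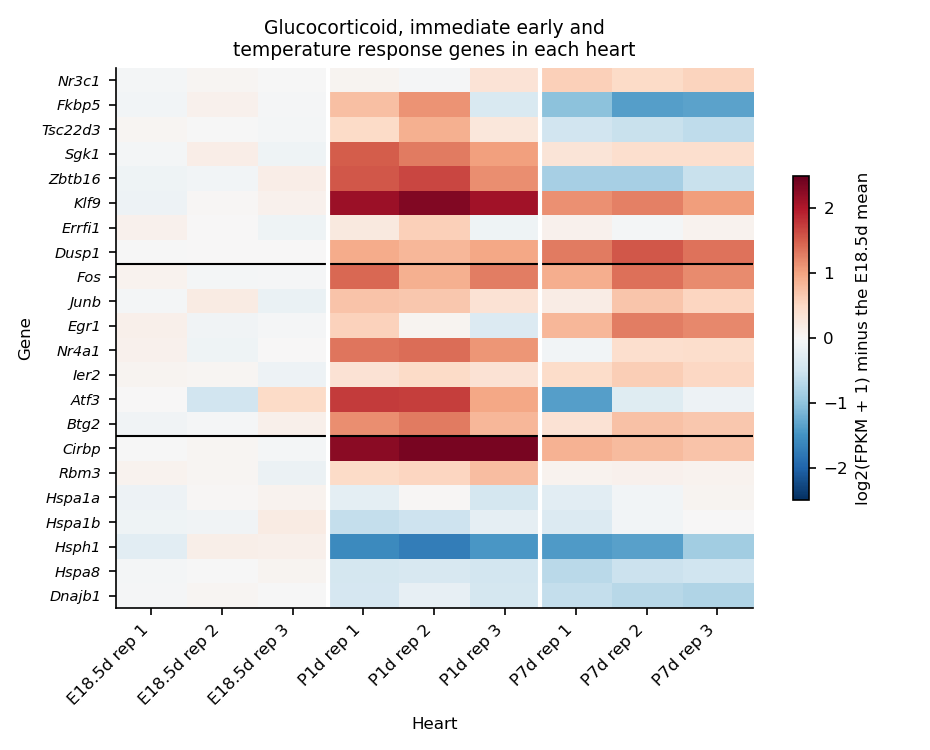
Heat map of log2(FPKM + 1) minus the gene's E18.5d mean, in each heart, for the glucocorticoid response, immediate early and temperature response genes, separated by black lines. *Klf9* and *Cirbp* are dark red in all 3 P1d hearts, *Fkbp5* is red in P1d replicates 1 and 2 alone, and *Zbtb16* is blue at P7d.

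Markers of cell types moved between the stages as well. The summed level of 6 fibroblast markers was 856 to 900 FPKM at E18.5d, 697 to 979 FPKM at P1d and 1116 to 1149 FPKM at P7d, and that of 5 endothelial markers was 331 to 367, 409 to 448 and 480 to 501 FPKM. The sum of 4 epicardial markers was 44.4 to 54.2, 44.7 to 60.8 and 22.9 to 27.3 FPKM, and that of 5 brown fat markers 6.13 to 7.77, 25.9 to 26.3 and 33.6 to 38.9 FPKM, most of it *Cidea*, with *Elovl3* at 0.06 FPKM or less in every heart. The sum of 4 macrophage markers was 28.4 to 37.4, 39.3 to 58.2 and 40.4 to 45.4 FPKM, and that of 5 erythroid markers 5228 to 13713, 7877 to 15405 and 5209 to 6783 FPKM. Single markers had all 3 P1d hearts above every other heart, as 7 clock genes did. The fat cell gene *Adipoq* was at 0 to 0.42 FPKM at E18.5d, 1.91 to 3.09 FPKM at P1d and 0.86 to 1.01 FPKM at P7d, higher at P1d than at E18.5d and lower again at P7d (limma, adjusted p = 0.00021 and 0.00628). The red cell gene *Slc4a1* was at 1.55 to 3.19, 4.89 to 6.21 and 2.52 to 3.33 FPKM (limma, adjusted p = 0.00146 and 0.00981 for the same comparisons). The epicardial markers *Msln* and *Upk1b* also had all P1d hearts highest, at 19.53 to 29.8 and 7.62 to 9.08 FPKM, with the next heart at 19.47 and 7.35 FPKM. Against E18.5d, *Upk1b* passed as higher at P1d (0.25, limma, adjusted p = 0.0447) and *Msln* did not pass (0.36, adjusted p = 0.0516). The rest of the epicardial list went the other way, *Wt1* as lower (-0.42, limma, adjusted p = 0.0159) and *Upk3b* without passing (-0.28, adjusted p = 0.0858). The 8 cardiomyocyte markers summed to 33547 to 36446, 37361 to 42545 and 38433 to 40070 FPKM. The part of these cells in the clock gene values was not tested.

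Results that rest on the hearts with *Xist* were also computed without them, which leaves 1 heart each at E18.5d and P7d and 3 at P1d, so that the lone hearts are assumed to vary like the P1d hearts. The E18.5d heart left is replicate 2, with 137 FPKM of airway and lung markers. P1d replicate 1, with 221 FPKM of them, also stays. Over all genes tested, 6.04%, 1.31% and 1.42% were then called for P1d against E18.5d, P7d against P1d and P7d against E18.5d. For P1d against E18.5d, *Per1* (2.16), *Per3* (1.36), *Cry2* (1.36), *Nr1d1* (2.30), *Nr1d2* (1.32) and *Dbp* (1.51) stayed past the threshold (limma, adjusted p from 0.0201 to 0.0298), and *Per2* had a difference of 0.88 (adjusted p = 0.0578). From P1d to P7d, *Per1* (-3.20) and *Per2* (-1.47) stayed past the threshold, and the differences of *Per3* (-0.37), *Cry2* (-0.69), *Nr1d1* (-1.09), *Nr1d2* (-0.39) and *Dbp* (-0.44) kept their sign with adjusted p from 0.0703 to 0.224. For P7d against E18.5d, with 1 heart a stage, no clock gene passed (limma, adjusted p of the 7 from 0.0757 to 0.199), with differences of -1.04 for *Per1*, -0.58 for *Per2*, 0.99 for *Per3*, 0.66 for *Cry2*, 1.21 for *Nr1d1*, 0.93 for *Nr1d2* and 1.07 for *Dbp*. With a covariate for *Xist* in the fit of all 9 hearts, every call of the 10 clock genes was the same as without it.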

How the data were processed

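RNA-seq of 9 mouse hearts was used, 3 at each of E18.5d, P1d and P7d, grouped by their titles. The authors deposited FPKM values with 1 column per heart, rounded to 2 decimals. Per the submitters' processing notes, reads were aligned with STAR to GRCm38 (mm10). The counting tool and annotation are not given in the sources used here. Libraries were made with an NEBNext Ultra kit from total RNA. Names, positions and overlaps were taken from GENCODE M21, which holds 48058 of the 48820 identifiers, and promoter sequences from RefSeq on GRCm38.p6.

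Values were transformed to log2(FPKM + 1). Genes whose mean reached 1 FPKM (13618) entered a single limma fit (version 3.58.1, R 4.3.3, trended eBayes) of all 9 hearts by stage, without covariates, with Benjamini-Hochberg adjustment over all genes and a threshold of 0.05. This scale understates the change of low genes. FPKM are not counts, so no count model was used, and depth was estimated from the steps between low values of genes with 1 annotated transcript, of which 90.5% to 94.0% were whole multiples within 0.2. Ratios were tested by exact permutation in Python 3.11.15 with scipy 1.17.1. Scripts were tested on simulated data. The p-values measure the spread between 3 hearts per stage, labelled as biological replicates. The labels do not tie equal replicate numbers to a shared litter or day, and same-numbered hearts did not deviate together (correlation of deviations from -0.0546 to 0.112 over 9 pairs).

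The 10 clock genes and the gene lists were chosen with earlier results of these data known. All 10 are named, as are genes of like pattern to *Dbp* and *Arntl* by a fixed distance. Of the other clock genes, those of largest change and some others past the threshold are named, and of the lists of signals at most 3 genes each. *Nr3c1* is named in addition because it encodes the receptor. *Fkbp5*, *Adipoq*, *Slc4a1*, *Msln* and *Upk1b* were chosen after their values were seen, and *Wt1* and *Upk3b* complete the epicardial list. Alternatives changed the pseudocount (0.1), the filter (none, or 5 FPKM), the scaling of columns (4 ways), the trend, the stages fitted, the replicate number (as a block), the size of change required (1 on the log2 scale), each heart in turn, and *Xist* (a covariate, or hearts with it removed). Removal of the 3 hearts with airway genes was chosen after seeing the data. Values of 2 other clock genes are not reported here, although they are in the counts.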

Additional observations from a re-analysis of the deposited data

How the results depend on the processing

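Over 22 alternatives, the 21 calls of the clock genes kept their direction in all 459 values computed and their side of the threshold in 444. Of the 15 lost, 13 were lost without the 4 hearts with *Xist*, where 2 clock genes fell from P1d to P7d and for P7d against E18.5d 0 were higher and 0 lower. There, 5, 1 and 0 other clock genes were called for P1d against E18.5d, P7d against P1d and P7d against E18.5d. The design then has few residual degrees of freedom, so these counts say little about stability. Without the 3 hearts with airway genes, 8 other clock genes were called for P1d against E18.5d, 7 for P7d against E18.5d, and 1 clock gene was called lower for the last. In that setting the P1d against E18.5d difference turned to -0.062 for *Arntl* and -0.18 for *Clock*, and that of *Clock* at P7d against E18.5d to -0.043. With a log2 change of at least 1 as well, 3 clock genes fell from P1d to P7d, 1 was higher and 1 lower for P7d against E18.5d, and 7, 3 and 0 other clock genes were called. With the covariate for *Xist*, 15 other clock genes were called for P1d against E18.5d, in place of 23, as the share of all genes called went from 46.0% to 33.0%. A mean of at least 5 FPKM left *Per2* out, and 1 clock gene was then lower for P7d against E18.5d. With the columns rescaled to an equal sum, 1 clock gene was lower at P1d than at E18.5d (*Cry1*), *Arntl* turned to -0.10 and *Clock* to -0.16 there. *Cry1* at P7d against E18.5d turned to 0.011 with an equal sum over protein-coding nuclear genes, 0.050 by median of ratios and 0.0083 by quantile normalization. None of these turned values passed the threshold.
With each heart left out in turn, the clock genes higher numbered 7 at P1d against E18.5d, 0 to 1 at P7d against P1d and 5 at P7d against E18.5d, and those lower 0 to 1, 7 and 2. The other clock genes called were 18 to 23, 18 to 24 and 13 to 19. Differences whose sign turned lay between -0.11 and 0.15 (*Arntl*, P1d against E18.5d), -0.054 and 0.11 (*Clock*, P1d against E18.5d), -0.012 and 0.18 (*Clock*, P7d against P1d) and -0.037 and 0.13 (*Cry1*, P7d against P1d).
The replicate numbers pair nothing in the labels. With the replicate block, 7, 0 and 5 clock genes were higher and 0, 7 and 2 lower in the 3 comparisons, with no call changed. At the depth of these hearts each clock gene lay well above the value of 1 fragment.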
